A study of Rattus norvegicus with 86 samples.

Results

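The common reference genes of transcript measurements followed here were Actb (ENSRNOG00000034254), Gapdh (ENSRNOG00000018630), Ywhaz (ENSRNOG00000008195), B2m (ENSRNOG00000017123), Tbp (ENSRNOG00000001489) and Hprt1 (ENSRNOG00000048561). They were chosen by name and identifier, all 6 were in the table, and the table held 17180 genes. Gene expression had been measured by RNA-Seq of polyA RNA from the nucleus accumbens core (NAcc), a region of the ventral striatum. The rats were of the Heterogeneous Stock (HS), which is kept outbred and goes back to inbred founder strains. The rats were untreated, so the groups were the 2 sexes and the numbered rat batches, and each library came from both sides of the brain of 1 rat. The labels did not say what a rat batch stood for and gave no age. Of 86 samples, 11 were labelled as removed and 75 libraries were in the table, with 2 females and 10 males from rat batch 2, 13 and 7 from batch 3, 14 and 12 from batch 4, and 8 and 8 from batch 6. The 1 female from rat batch 5 was left out of every comparison. The other 74 libraries were used.

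A reference gene is a transcript whose level is taken to be the same in every sample, so that the level of another gene can be divided by it. The choice usually falls on genes that nearly all cells use. Actb encodes beta-actin, a building block of the cytoskeleton. Gapdh encodes an enzyme of glycolysis. Ywhaz encodes an adaptor protein that binds phosphorylated partners in signalling. B2m encodes the light chain of MHC class I molecules. Tbp encodes the TATA-binding protein, a general transcription factor, and Hprt1 encodes an enzyme of purine salvage. In bulk tissue such as this, fewer cells of a type and less RNA per cell cannot be told apart.

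The promoter table from RefSeq (build GRCr8, whereas the expression values came from a transcriptome of Rnor_6.0) held 4 of the 6 genes, Gapdh, B2m, Tbp and Hprt1. They are printed so that the start regions of genes used side by side as references can be compared. Each is the 100 bases just before the annotated start, 5′ to 3′ on the gene's own strand. Capitals mark any TATAA found on either strand. They also mark any CCAAT, which reads as ATTGG when it is on the other strand. The last motif marked was GGGCGG, also on either strand. No marked motif overlapped another.
Gapdh, chr4:159652468-159652567, minus strand: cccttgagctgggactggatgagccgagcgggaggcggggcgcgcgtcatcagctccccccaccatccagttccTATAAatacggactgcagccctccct
B2m, chr3:129549230-129549329, plus strand: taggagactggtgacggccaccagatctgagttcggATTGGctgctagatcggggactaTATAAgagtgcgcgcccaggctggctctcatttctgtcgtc
Tbp, chr1:65136608-65136707, plus strand: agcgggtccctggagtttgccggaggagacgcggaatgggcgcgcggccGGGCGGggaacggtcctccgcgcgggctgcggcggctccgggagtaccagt
Hprt1, chrX:137655644-137655743, plus strand: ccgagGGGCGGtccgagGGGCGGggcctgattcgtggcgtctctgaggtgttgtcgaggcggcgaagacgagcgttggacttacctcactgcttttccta

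The Gapdh and B2m windows each held TATAA, which 10.95% of 33469 promoter windows of the same length held. The Tbp and Hprt1 windows held no TATAA, and they held GGGCGG once and 2 times, a motif found in 21.6% of windows. CCAAT was in the B2m window and in 17.1% of all windows. These matches describe letters in a window and were not related to the levels below.

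Levels are given as log2(scaled count + 1), where the scaled count is the read count of a gene after the authors had made the upper quartiles of the libraries equal. A difference of 1 on this scale is a change of 100%, and levels were not divided by transcript length, so they are not ordered between genes. Libraries held between 8455360 and 26145577 counts in all, with a median of 17734518. A male of rat batch 2 (replicate 7) had both the lowest total and the lowest median correlation with the other libraries, 0.934 against a median of 0.965 over libraries. Read counts behind the 5 genes other than Hprt1 ran from 121 reads for Tbp in the library where it was lowest to 44422 for Ywhaz where it was highest.

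The 6 genes fell into groups by how much they varied from rat to rat. Ywhaz had the narrowest spread, that of Tbp was narrow for genes of its level though, with batch means taken off, wider than those of Ywhaz, Actb and Gapdh, Actb moved with the rat batch, Gapdh split within a rat batch, B2m varied more than most genes of its level except within rat batch 2, and the Hprt1 identifier varied more than nearly all genes of its level. Spread is given as the SD between rats of the log2 level, before and after the mean of each rat batch was taken off, and its rank was read among the 500 genes nearest in mean level. For Actb, Gapdh and Ywhaz few genes lay above them (56, 66 and 23), so their 500 neighbours were nearly the same set of abundant genes, with means from 12.39 to 19.28. Each SD after batch means were taken off is followed by its jackknife SE over the 74 libraries.

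Ywhaz had the narrowest spread of the 6 on the deposited values. Its level ran from 14.66 to 15.14 with a median of 14.93, so that the highest scaled count was 1.40 times the lowest. The SD between rats was 0.104 before and 0.104 ± 0.009 after batch means were taken off, so that the scaled count 1 SD above the mean is 1.075 times that at the mean. Of its 500 neighbours, 20.6% had a smaller SD, and the median neighbour had 0.138. Rat batch took 3.11% of its variance, against a median of 25.0% over the neighbours. With quantile normalization its SD was 0.138, wider than those of Actb (0.0951) and Gapdh (0.131), and 54.2% of its neighbours had a smaller one. Within rat batch 2 alone Gapdh was narrower than Ywhaz (0.0908 and 0.1123), and B2m (0.1118) and Actb (0.1120) were about as narrow as it, and within rat batch 3 alone Actb was (0.0846 and 0.0908).

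Tbp, at a much lower level, had a wider spread in absolute terms but one of the smallest for its level. It ran from 7.63 to 8.50 with a median of 7.92. Its SD was 0.160 before and 0.158 ± 0.015 after batch means were taken off, and 7.80% of its neighbours had a smaller SD, with a median of 0.219. That share had a jackknife SE of 8.45 percentage points, and within rat batch 6 alone it was 36.6%. A Tbp count of 235, its median, carries a counting SD of 0.094 on this scale. Rat batch took 6.87% of the variance of Tbp, against a neighbour median of 14.4%.

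Actb was the gene for which taking off batch means mattered most. It ran from 14.07 to 14.79 with a median of 14.46, and its SD fell from 0.172 to 0.115 ± 0.009. Before batch means were taken off, 57.0% of neighbours had a smaller SD, and afterwards 29.2% did. Rat batch took 57.1% of the variance of Actb, a larger share than in 91.2% of its neighbours.

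Gapdh ran from 13.94 to 14.58 with a median of 14.23, and its SD was 0.158 before and 0.144 ± 0.011 after batch means were taken off. It stood near the middle of its neighbours, 56.6% of which had a smaller SD. Rat batch took 19.5% of its variance. B2m ran from 11.38 to 12.31 with a median of 11.85. Its SD of 0.177 fell to 0.167 ± 0.016, and 71.6% of its neighbours had a smaller SD, with a median of 0.136. Within rat batch 2 alone that share was 42.0%. Rat batch took 14.8% of the variance of B2m, against a neighbour median of 21.9%.

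Hprt1 stood apart. It ran from 0 to 8.92 with a median of 7.43, and its SD was 1.47 before and 1.39 ± 0.37 after batch means were taken off. Of its 500 neighbours, 99.0% had a smaller SD, and their median was 0.274. The SD was largest in the rat batches that held a library at 0, at 2.37 for rat batch 2 and 1.58 for batch 4, against 0.522 for batch 3 and 0.647 for batch 6.

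**Figure D1:**
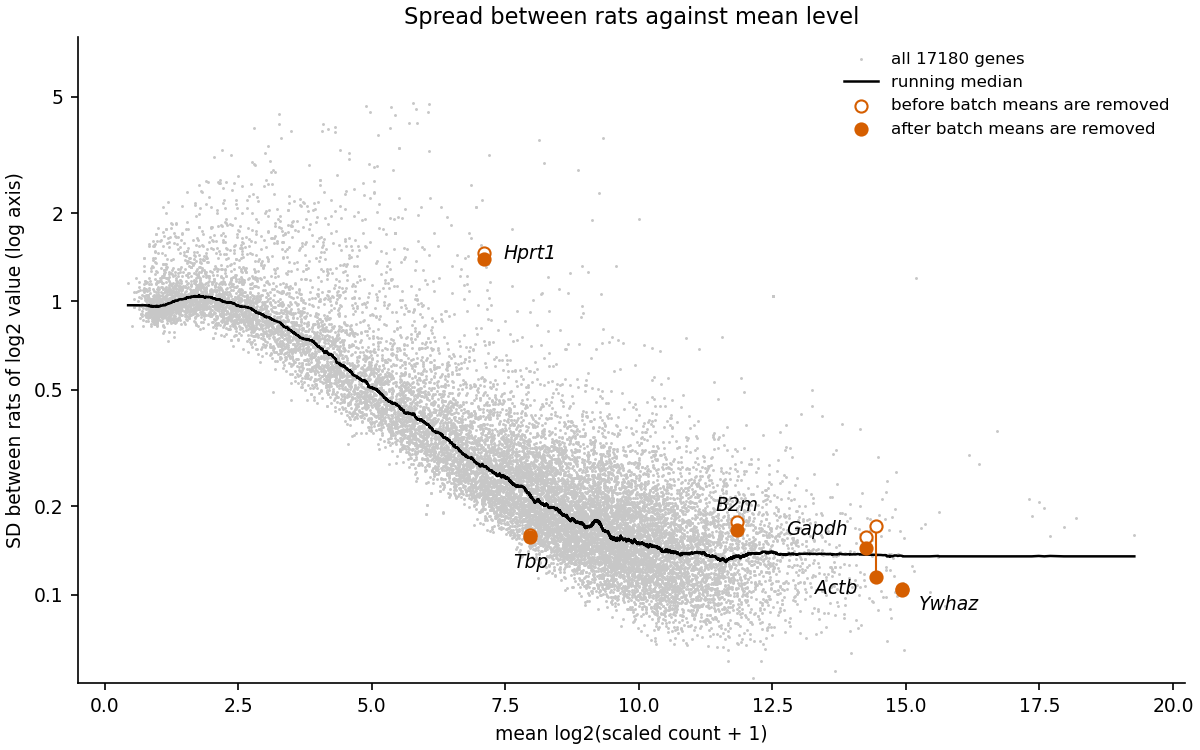
SD between 74 rats of the log2 level (log axis) against mean log2(scaled count + 1), with a grey point for each gene of the table and a black line for the running median. Orange circles give the 6 reference genes before (open) and after (filled) rat batch means are taken off. Hprt1, at 1.39, lies far above the line, and the filled circle of Actb, at 0.115, lies well under its open one at 0.172.

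Among the 12988 genes with a mean level of at least 5, ordered from the smallest SD after batch means were taken off, Ywhaz held place 808, Actb 1363, Gapdh 3253, Tbp 4143, B2m 4753 and Hprt1 12914. None of the 6 was thus among the 200 smallest SDs. Tbp was lower in this order than against genes of its own level, whose median SD of 0.219 was above those around the more abundant references.

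Next, the levels were compared between the rat batches. With limma's moderated F test, sex in the model and Benjamini-Hochberg adjustment over all genes, 9192 of 17180 genes differed, or 53.5% of all genes. Of the 6 references, 4 were called, which is near that background: Actb (adjusted p = 4.53e-11), Hprt1 (0.0102), Gapdh (0.0141) and B2m (0.0245). Tbp (adjusted p = 0.246) and Ywhaz (0.651) were not. The pairs of batches differed widely in how many genes were called, with 3.44% of genes for rat batches 3 and 2, 26.9% for 4 and 2, 34.8% for 6 and 2, 39.8% for 4 and 3, 43.1% for 6 and 3, and 3.87% for 6 and 4. These shares depended on the fit. For 6 and 4, 665 genes were called, against 4 in the females of rat batches 3, 4 and 6 alone and 5 in males alone. For 3 and 2, 591 genes were called, against 1031 with libraries scaled to equal totals.

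Actb was lower in rat batches 4 and 6 than in rat batches 2 and 3. The rats of batch 2 had a lowest, median and highest level of 14.40, 14.54 and 14.79, and those of batch 3 had 14.48, 14.59 and 14.75. The rats of batch 4 had 14.07, 14.32 and 14.59, and those of batch 6 had 14.13, 14.28 and 14.55. The groups overlapped, as 14 of the 42 libraries of rat batches 4 and 6 reached the lowest of the 32 libraries of rat batches 2 and 3, and 17 of those 32 were at or under the highest of the 42. Between rat batches 3 and 4 the level fell by 0.26 (SE 0.035, limma adjusted p = 8.09e-09), so that the scaled count fell by 16.5%. Between 3 and 6 it fell by 0.28 (SE 0.039, adjusted p = 3.08e-08), between 2 and 4 by 0.24 (SE 0.042, 8.17e-06), and between 2 and 6 by 0.26 (SE 0.046, 6.49e-06). Neither of the other pairs was called, with differences of 0.02 (SE 0.045) between 2 and 3 and -0.02 (SE 0.037) between 4 and 6. The batch difference was found in each sex alone, with an adjusted p of 0.00022 in males and 1.49e-05 in the females of rat batches 3, 4 and 6.

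The sample columns of the deposited table stand in 3 runs, since the alphabetical order of their names restarts 2 times, and these runs followed the rat batches closely. All 12 libraries of rat batch 2 were in run 1, rat batch 3 had 7 libraries in run 1, 12 in run 2 and 1 in run 3, and all libraries of rat batches 4 and 6 were in run 3. The labels do not name the runs. The difference of rat batches 4 and 6 from 2 and 3 in Actb and the difference of run 3 from runs 1 and 2 cannot be told apart, and with the run in the model the adjusted p of Actb was 0.841. Its difference between rat batches 3 and 4 was then -0.13 with an SE of 0.12, against -0.26 with an SE of 0.035 without the run, and that between 3 and 6 was -0.14 (SE 0.12). Both differences with the run in the model rested on the single library of rat batch 3 in run 3. Its Actb level was 14.48, at the low edge of its batch. With quantile normalization the difference between rat batches 3 and 4 shrank to -0.08 (SE 0.030, limma adjusted p = 0.0310), and rat batch 6 no longer differed from rat batch 2 (adjusted p = 0.0825) or rat batch 3 (0.184).

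**Figure D2:**
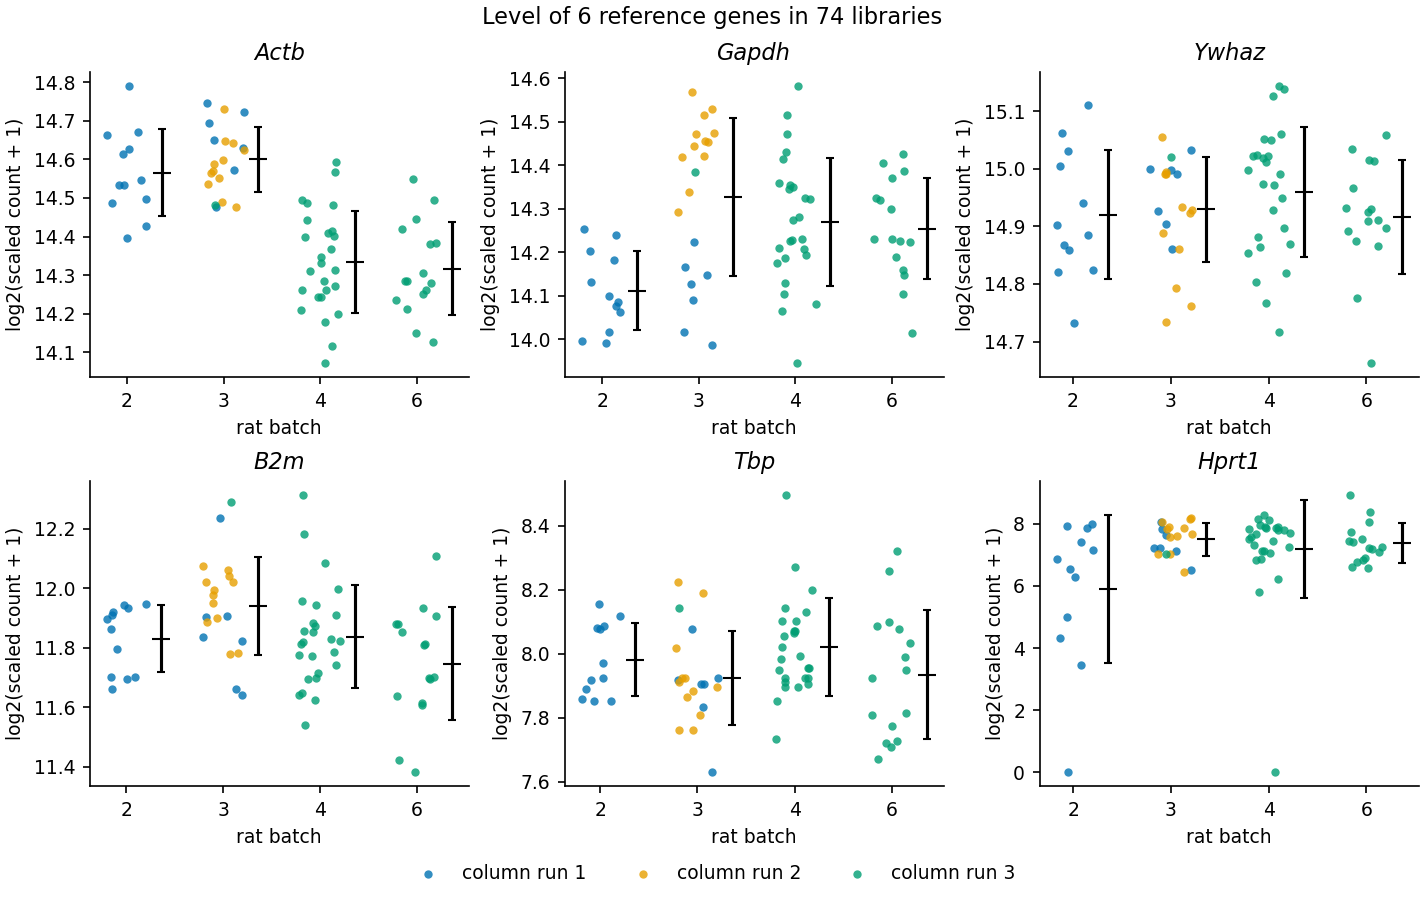
Level of each reference gene, log2(scaled count + 1), in the 74 libraries by rat batch, with points coloured by the run of the table's columns and black marks for the batch mean ± SD. Actb is lower in rat batches 4 and 6, the Gapdh levels of rat batch 3 split by column run, and 2 libraries have Hprt1 at 0.

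Gapdh showed another pattern. The rats of batch 2 had a lowest, median and highest level of 13.99, 14.09 and 14.25, those of batch 3 had 13.99, 14.40 and 14.57, those of batch 4 had 13.94, 14.25 and 14.58, and those of batch 6 had 14.02, 14.23 and 14.43. Rat batch 3 was higher than rat batch 2 by 0.20 (SE 0.056, limma adjusted p = 0.0287) and rat batch 4 by 0.15 (SE 0.052, adjusted p = 0.0266). The difference of 0.13 for rat batch 6 was not called (SE 0.057, adjusted p = 0.0581). The scaling of the libraries moved these calls. The difference between rat batches 3 and 2 was 0.13 with quantile normalization (adjusted p = 0.122) and 0.15 with equal totals (0.0806), and was not called, whereas that between 6 and 2 rose to 0.26 (4.49e-05) and 0.17 (0.0127) and was called. With quantile normalization rat batches 4 and 6 were also higher than rat batch 3, by 0.10 (SE 0.039, adjusted p = 0.0273) and 0.13 (SE 0.044, 0.0121), whereas the deposited values gave differences of -0.05 and -0.07 that were not called. The call between rat batches 3 and 2 was also lost without the male of rat batch 3 numbered 2 (adjusted p = 0.0552) or the one numbered 11 (0.0615). The difference itself stayed at 0.19 in each of these fits. The wide range in rat batch 3 was a split in 2. Its 7 libraries in column run 1 lay between 13.99 and 14.22 and its 12 libraries in run 2 between 14.29 and 14.57, with no overlap.

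That split was tested within rat batch 3, with sex in the model, after the values had been seen. Gapdh was higher in run 2 by 0.35 (SE 0.041, limma adjusted p = 9.28e-05), a rise of 27.3%, in a comparison that called 11.1% of all genes. Among the references Gapdh alone was called there. The differences were -0.05 (SE 0.042) for Actb, -0.05 (SE 0.047) for Ywhaz, 0.10 (SE 0.065) for B2m, 0.03 (SE 0.074) for Tbp and 0.24 (SE 0.23) for Hprt1, with adjusted p-values from 0.355 to 0.840. Whether Gapdh differed from these 5 in its change was not tested. Within run 1, rat batch 3 differed from rat batch 2 by -0.04 in Gapdh (SE 0.054), and 0% of genes were called by limma in that comparison of 7 and 12 libraries, with 553 genes at an unadjusted p under 0.05. Within run 3, rat batch 6 differed from rat batch 4 by -0.02 in Gapdh (SE 0.044), in a comparison that called 2.60% of genes and none of the 6. With the run in the model, the adjusted p of Gapdh over the rat batches was 0.941.

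B2m was called over the rat batches through a single pair. The rats of batch 2 had a lowest, median and highest level of 11.66, 11.88 and 11.95, those of batch 3 had 11.64, 11.93 and 12.29, those of batch 4 had 11.54, 11.82 and 12.31, and those of batch 6 had 11.38, 11.75 and 12.11. Rat batch 6 was lower than rat batch 3 by 0.19 (SE 0.056, limma adjusted p = 0.00379), so that the scaled count fell by 12.4%, with the ranges overlapping over most of their length. The call over all batches was lost without either of 2 females of rat batch 6, numbered 2 (adjusted p = 0.0571) and 8 (0.0593). It was also lost with libraries scaled to equal totals (0.390) and in males alone (0.309) or the females of rat batches 3, 4 and 6 alone (0.110). The difference of rat batch 6 from 3 was -0.16 in males (SE 0.071, adjusted p = 0.127) and -0.22 in females (SE 0.085, adjusted p = 0.0477).

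Tbp and Ywhaz passed no comparison between rat batches on the deposited values with sex alone as covariate. The batch medians of Tbp were 7.95, 7.91, 7.99 and 7.94 in rat batches 2, 3, 4 and 6, and the largest of its pairwise differences was 0.10, between rat batches 3 and 4 (SE 0.049, limma adjusted p = 0.103). The batch medians of Ywhaz were 14.89, 14.93, 14.98 and 14.92, and its differences lay between -0.04 and 0.04, with SEs from 0.033 to 0.043. Tbp was higher in rat batch 4 than in rat batch 3 by 0.13 with the total count in the model (SE 0.049, adjusted p = 0.0372), and both genes depended on how the libraries were scaled. With equal totals, Tbp passed over the rat batches (adjusted p = 0.0303) and Ywhaz did not (0.0605), and both were higher in rat batch 4 than in rat batch 3, Tbp by 0.16 (SE 0.048, adjusted p = 0.00534) and Ywhaz by 0.09 (SE 0.032, 0.0148). With quantile normalization Ywhaz passed (adjusted p = 6.32e-07), being higher by 0.25 in rat batch 4 than in rat batch 3 (SE 0.042, adjusted p = 1.94e-06), against 0.03 as deposited.

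Hprt1 differed between rat batch 2 and each of the others. The rats of batch 2 had a lowest, median and highest level of 0, 6.72 and 7.98, those of batch 3 had 6.46, 7.62 and 8.20, those of batch 4 had 0, 7.62 and 8.29, and those of batch 6 had 6.58, 7.25 and 8.92. The recovered counts were 0 reads in the male of rat batch 2 numbered 7 and in the female of rat batch 4 numbered 5, then 11, 16 and 35 reads in 3 more libraries of rat batch 2. A count of 0 allows up to 3 reads in those libraries, and this limit covers counting error only. The 2 libraries at 0 were among the shallow ones, with totals of 8455360 and 10915952, and had 1318 and 1134 genes at 0 against a median of 562. The male of rat batch 6 numbered 6 had a like total of 10372198 and 1399 genes at 0, and it held 98 reads of Hprt1. Rat batch 2 was lower than rat batch 3 by a fitted 1.84 (SE 0.51, limma adjusted p = 0.0310), than rat batch 4 by 1.47 (SE 0.48, 0.0163) and than rat batch 6 by 1.63 (SE 0.52, 0.0105). The part of the 2 libraries at 0 was measured by leaving them out. Without the male of rat batch 2 these differences were 1.32, 0.95 and 1.11, none of the 3 was called, and the limma adjusted p over all rat batches was 0.0554 against 0.0102 with it. Without the female of rat batch 4 they were 1.74, 1.68 and 1.57. Without both they were 1.23, 1.16 and 1.05, with an adjusted p of 0.00172 over all batches that is no valid test, because these libraries were left out for their Hprt1 level itself, which narrows the spread. The call between rat batches 3 and 2 was also lost without the male of rat batch 2 numbered 2 (1.75, limma adjusted p = 0.0574) or 8 (1.69, 0.0532). It was lost too without the female of rat batch 2 numbered 4 (1.59, 0.0519) or the male of rat batch 3 numbered 11 (1.82, 0.0501). That between 4 and 2 was lost without the same female (1.23, 0.0632). In these fits the difference between 3 and 2 stayed between 1.59 and 1.82, against 1.32 without the male of rat batch 2 numbered 7.

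The spread of Hprt1 had a counterpart in another identifier of the table, ENSRNOG00000031367, which was picked out after the values were seen and whose gene symbol was not looked up here. Among the 11125 genes with a mean scaled count of at least 100, it had the most negative correlation with Hprt1 on scaled counts. Pearson's r was -0.47 and Spearman's rho -0.37 over 74 libraries, r was -0.39 without the 2 libraries farthest from the median of Hprt1, and r was -0.45 with batch means taken off. These are descriptions of a chosen gene and carry no test. The slope was -0.97, that is, 0.97 counts fewer on the other identifier for each further count on Hprt1. Hprt1 ran from 0 to 484 scaled counts with a median of 172, and the other identifier from 866 to 1981 with a median of 1380. Hprt1 made up between 0% and 30.3% of the sum of both, with a median of 11.1%.

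The sum of both identifiers is mostly the other one. Whether both belong to the same gene was not tested, so what the sum says about Hprt1 is not known. The other identifier alone had an SD of 0.182 after batch means were taken off, with 74.8% of the 500 genes of like mean under it, and the sum had an SD of 0.144, with 53.2% under it. The summed level ran from 10.15 to 10.95 with a median of 10.60. In scaled counts, the SD between rats was 84.0 for Hprt1, 175 for the other identifier and 155 for the sum, and a sum that varies less than its larger part follows from the negative correlation by which the identifier was picked. The authors estimated counts with RSEM, which divides reads that fit several transcripts among them, so values of near-identical copies are uncertain. Whether these identifiers share reads was not tested.

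**Figure D3:**
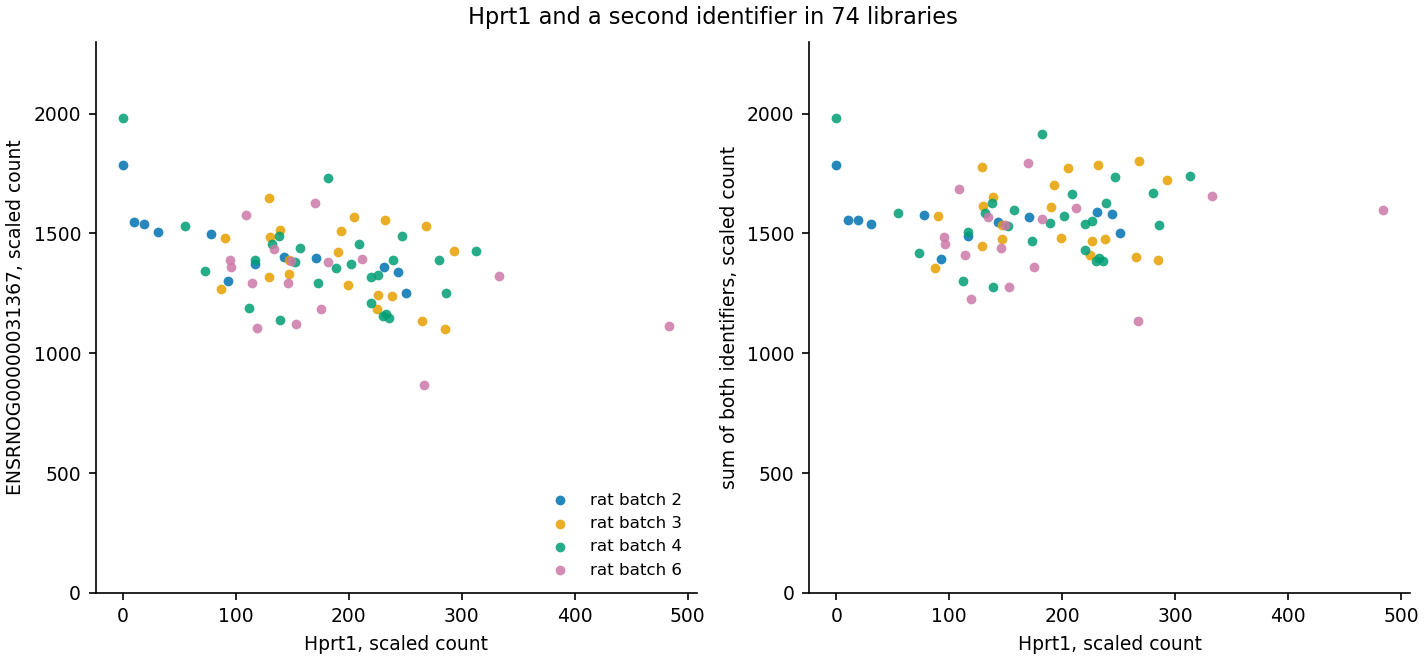
Scaled count of ENSRNOG00000031367 (left) and of the sum of both identifiers (right) against the scaled count of Hprt1 in 74 libraries, coloured by rat batch. The second identifier was picked for its negative correlation with Hprt1. It falls as Hprt1 rises, with a slope of -0.97, so that the sum hardly moves with Hprt1. The libraries with Hprt1 at 0 have 1786 and 1981 counts on the second identifier.

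None of the 6 references was called as different between the sexes. With rat batch in the model, limma called 15 genes, 0.0873% of all genes. Actb ran from 14.12 to 14.79 in females with a median of 14.48 and from 14.07 to 14.69 in males with a median of 14.45, and the ranges of the sexes overlapped for each of the other 5 as well. Males minus females gave -0.04 for Actb (SE 0.029), -0.03 for Gapdh (SE 0.035), -0.01 for Ywhaz (SE 0.027), -0.02 for B2m (SE 0.040) and -0.02 for Tbp (SE 0.040). For Hprt1, whose gene is on the X chromosome, the difference was 0.50 (SE 0.33). The limma adjusted p-values of these 6 differences lay between 0.866 and 0.973. The size for Hprt1 was unsteady, from 0.30 to 0.64 when 1 library at a time was left out. It was 0.12, 0.81 and 0.53 within rat batches 3, 4 and 6, 0.13 without rat batch in the model, and 1.11 with 20 expression components as covariates. A difference between rat batches in the effect of sex was called in 0% of genes by limma's interaction test in rat batches 3, 4 and 6, with 506 genes at an unadjusted p under 0.05 and 0 called by voom. The unadjusted p-values of the references in that test ran from 0.135 for Tbp to 0.862 for B2m.

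The ratio of a pair of well-counted references hardly depends on the factor a library was scaled by, so all 15 pairs were examined. This does not hold for Hprt1 in the 2 libraries where it was at 0, and the mean SD of its ratios went from 1.41 to 1.00 when 8 was added to the scaled counts in place of 1. After batch means were taken off, Actb/Gapdh had the narrowest log2 ratio, with an SD of 0.128, followed by Ywhaz/B2m at 0.157, Ywhaz/Tbp at 0.162 and Actb/Ywhaz at 0.164. The other 6 pairs without Hprt1 lay between 0.197 for Gapdh/Ywhaz and 0.223 for Actb/B2m. The 5 pairs with Hprt1 lay between 1.38 and 1.44, and between 0.795 and 0.822 without the 2 libraries at 0. Before batch means were taken off the order was another, with Ywhaz/Tbp narrowest at 0.161 and Actb/Gapdh at 0.195.

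**Figure D4:**
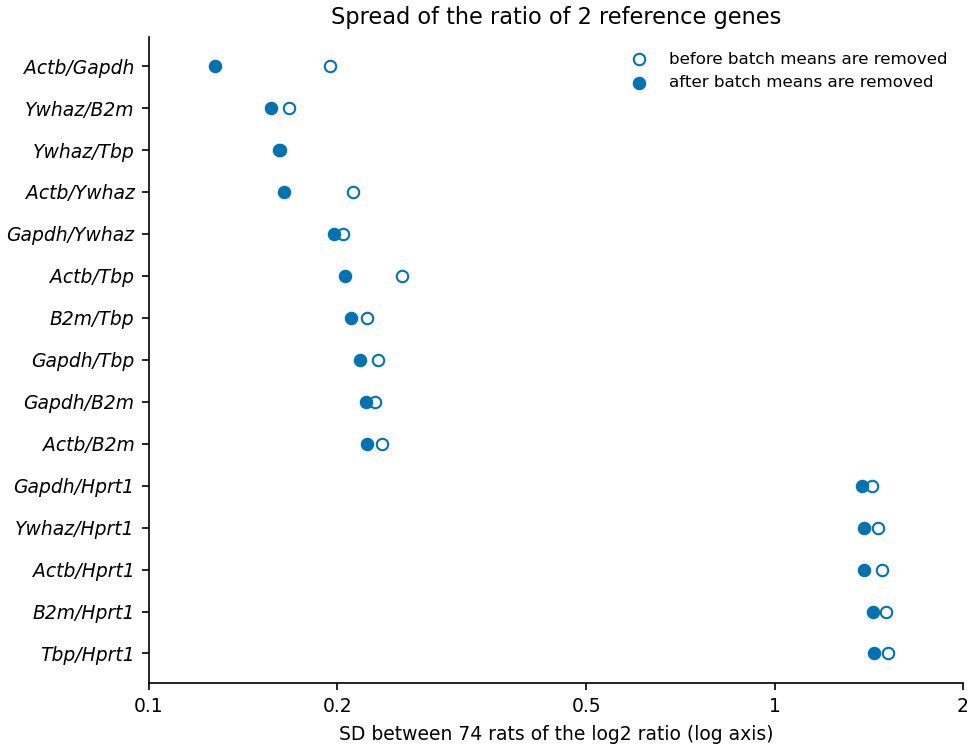
SD between 74 rats of the log2 ratio of each pair of reference genes (log axis), before (open) and after (filled) rat batch means are taken off. Actb/Gapdh moves from 0.195 to 0.128, Ywhaz/Tbp hardly moves, and the 5 pairs with Hprt1 stand at 1.38 or more.

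The ratios themselves were then tested for differences between rat batches, by permuting the batch within each sex 100000 times and adjusting over the 15 pairs. The ratio Ywhaz/Tbp was the one with least difference (permutation adjusted p = 0.498), with batch means of 6.938, 7.004, 6.939 and 6.981 in rat batches 2, 3, 4 and 6. Gapdh/Ywhaz (adjusted p = 0.0544) and Gapdh/B2m (0.0625) also missed the threshold, and the other 12 pairs passed it. Of these, the 5 pairs with Hprt1 lost the call without the male of rat batch 2 at 0 for Hprt1, with adjusted p-values from 0.0707 for Actb/Hprt1 to 0.246 for Gapdh/Hprt1. That male was left out here for its Hprt1 level, though it also had the lowest total count, and the other library at 0 was kept. Without both libraries at 0 the adjusted p-values of these 5 pairs lay between 0.00105 for Actb/Hprt1 and 0.0232 for Gapdh/Hprt1, but that choice of libraries by their Hprt1 level narrows the spread of these ratios, so the values are no valid test. For Actb/Gapdh, Actb/Ywhaz and Actb/Tbp no permutation reached the observed F, so their unadjusted p was 1e-05, the smallest that could be had, and the adjusted p was 5e-05. From rat batch 2 to rat batch 6, the mean of Actb/Gapdh was 0.45 ± 0.11 (SD, n = 12), 0.27 ± 0.21 (n = 20), 0.07 ± 0.07 (n = 26) and 0.06 ± 0.06 (n = 16). The test did not take the column run into account, and rat batch 3 was divided by it, with 0.53 ± 0.07 in its 7 libraries of run 1, above the mean of rat batch 2 in the same run, and 0.14 ± 0.06 in its 12 libraries of run 2. Pairs that missed the threshold were divided too. In runs 1 and 2 of rat batch 3 Gapdh/Ywhaz was -0.85 ± 0.06 and -0.46 ± 0.08, with no overlap, and Gapdh/B2m was 2.25 ± 0.15 and 2.49 ± 0.09. The mean of Actb/Ywhaz was -0.35 ± 0.14, -0.33 ± 0.10, -0.62 ± 0.19 and -0.60 ± 0.20 in the order of the rat batches.

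The references were also set in order by dropping, one at a time, the gene whose ratios to those left had the largest mean SD, as in a common procedure for choosing reference genes. With batch means taken off, Hprt1 left first with a mean SD of 1.41, then B2m (0.203), Tbp (0.195) and Ywhaz (0.181), and Actb and Gapdh were the last pair. With no means taken off, Hprt1 again left first, at 1.48, but Actb left next (0.224), then Gapdh (0.222) and B2m (0.195), and Ywhaz and Tbp were the last pair at 0.161. The last pair thus shared no gene between these orders.

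Actb and Gapdh, the last pair of the first order, rose and fell together from rat to rat. With batch means taken off, r was 0.54 (permutation p = 1e-05, the smallest possible, adjusted p = 0.00021 over 21 relations) and Spearman's rho 0.51, and r was 0.50 without the 2 libraries farthest from the median of Actb. Within batches 2, 4 and 6 r was 0.39, 0.86 and 0.87. Within rat batch 3 r was -0.07. Its libraries lay in 3 column runs, and within runs 1 and 2 r was 0.66 (7 libraries) and 0.68 (12 libraries), a division made after the values had been seen. With means of batch and run taken off, r was 0.78 and rho 0.73. Levels in a library share its scaling factor, and none of the factors was known without error.

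**Figure D5:**
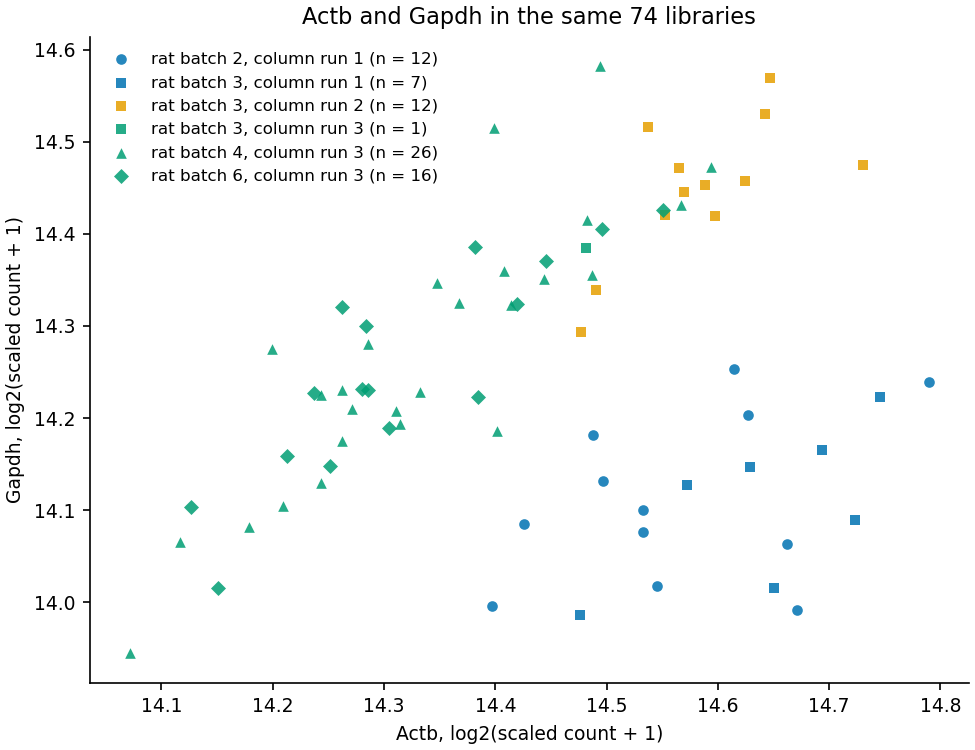
Gapdh against Actb, both as log2(scaled count + 1), in 74 libraries, with symbols for the rat batch and colours for the column run. Within rat batches 2, 4 and 6 Gapdh rises with Actb, with r from 0.39 to 0.87, while r is -0.07 over rat batch 3 and 0.66 and 0.68 in its runs 1 and 2. The sets lie side by side, run 1 at low Gapdh and high Actb, run 2 at high levels of both, and run 3 at lower Actb.

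Of the other 14 pairs, Ywhaz/B2m alone passed in the same family of 21 relations (r = 0.41, permutation adjusted p = 0.0044, rho = 0.37, adjusted p = 0.0146), and r was 0.36 without the 2 farthest libraries. Within rat batches 2, 3, 4 and 6 its r was 0.07, 0.43, 0.51 and 0.39. Actb and Ywhaz were not called together (r = -0.12, permutation adjusted p = 0.439), though r was -0.67 in rat batch 6, and the difference between batches was not tested. Some pairs with Gapdh that did not pass had r of both signs. Gapdh/Ywhaz had 0.68 and 0.62 in runs 1 and 2 of rat batch 3 but -0.36 and -0.47 in rat batches 4 and 6. Gapdh/B2m had 0.71 and 0.49 in those runs but -0.28 and -0.51 in rat batches 4 and 6. With the log2 total count of the library, r was 0.41 for Hprt1 (permutation adjusted p = 0.0208), but rho was 0.07 (adjusted p = 0.681) and r was -0.03 without the 2 libraries farthest from its median, so that relation rests on those 2. The other 5 references had an r with the total between -0.25 and 0.19, and none passed.

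For each reference, the 3 genes most like it from rat to rat were found among genes with a mean level of at least 5, by Pearson's r with batch means taken off over 74 libraries, as a description with no test. For Gapdh r was 0.84, 0.83 and 0.80, led by ENSRNOG00000042271, and it stayed between 0.71 and 0.88 in every rat batch for those 3 genes. For Ywhaz r was 0.82, 0.80 and 0.80, for Actb 0.80, 0.79 and 0.79, led by ENSRNOG00000018255, and for B2m 0.74, 0.73 and 0.71. Tbp had no close companion, with r at 0.50, 0.48 and 0.46. The lowest r of such a gene in a single rat batch was 0.67 for Ywhaz, 0.44 for Actb, 0.46 for B2m and -0.08 for Tbp. For Hprt1 the values were 0.68, 0.64 and 0.62, but they dropped to 0.23, 0.19 and 0.37 without the 2 libraries at 0. The table pairs its identifiers with no symbols, so these genes are given no symbol.

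Finally, all genes were divided by each reference in turn. Division moves every gene by the reference's own difference between batches, such as -0.26 for Actb and 0.10 for Tbp between rat batches 3 and 4. It also brings the reference's spread between rats into each gene, so the counts of calls depend on both. For Gapdh (-0.05) and Hprt1 (-0.37) the number of genes higher in rat batch 4 fell, though these differences alone would raise it. On the deposited values, 3360 genes were higher and 3484 lower in rat batch 4 than in rat batch 3. Divided by Actb, 10213 were higher and 371 lower. Divided by Tbp, 1315 were higher and 4722 lower. Gapdh gave 3233 and 1842, Ywhaz 2542 and 3557, and B2m 4440 and 838. Divided by Hprt1, 33 were higher and 41 lower in that pair, but 93.99% of genes were called over all rat batches, against 53.5% as deposited, since every gene then carried the difference of Hprt1 between rat batch 2 and the others. That share was 3.74% without the male of rat batch 2 at 0 for Hprt1 and 92.2% without both libraries at 0, which were left out for the level of the divisor itself. The median SD after batch means were taken off was read over genes with a mean level of at least 5. With Hprt1 as divisor it rose from 0.197 to 1.41, against 0.225 with Ywhaz and 0.232 with Actb. The mean of the 5 references without Hprt1 gave 4322 higher and 2127 lower with a median SD of 0.210, and that of all 6 gave 3671 and 544 with 0.302. The comparison of the sexes moved less, from 15 genes called as deposited to between 9 with Hprt1 and 20 with Actb.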

How the data were processed

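PolyA RNA of the NAcc was sequenced by the authors as single-end reads. Per the methods and the submitters' processing notes, reads were trimmed with cutadapt, counted by RSEM on Ensembl transcripts of the rat (Rnor_6.0), adjusted to a common upper quartile with DESeq2, filtered for low genes and logged. The deposited values are log2(scaled count + 1) for 17180 genes in 75 libraries, and 0 columns were left unmatched. RSEM divides reads that fit several transcripts, which makes values of similar genes uncertain.

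Scaling factors (0.708 to 2.18) were recovered from the rounding of the scaled counts, and gave the read counts printed.

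The limma package (3.58.1, under R 4.3.3) tested differences of the log2 values (eBayes with trend, threshold 0.05). The F test over rat batches had sex as covariate, the sex test had rat batch, and pairs of batches came from the same fit. Rats were separate animals. The authors aimed to leave out relatives but report pairs that seemed to be close relatives, and kinship was not modelled here, so p-values could be too small. SDs after batch means were taken off used 70 degrees of freedom. Ratios were tested with 100000 permutations, which like all tests here were two-sided or on F. Python 3.11.15 and numpy 2.4.6 were used.

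The genes, the lists, the tests and the alternatives were chosen with earlier results of these data known. Named genes were the 6 references and, for each, the 3 genes most correlated with it (mean level at least 5), of which 2 are printed by identifier. ENSRNOG00000031367 was added after its values were seen. Lists of further reference genes, pathways and cell type markers were not analysed here, because the table holds identifiers and the reference table used here pairs none of them with a symbol. For the same reason the tissue label was not checked against markers. Alternatives were other scalings, pseudocounts, filters, covariates, variance models and sets of libraries. The sum of Hprt1 with a second identifier, each sex alone for the batch test, the comparisons within column runs and the sets without the libraries at 0 for Hprt1 were chosen after seeing the data.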

Additional observations from a re-analysis of the deposited data

Results flagged for a closer look

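In the 4 sets of 1 sex and 1 rat batch that held 4 to 10 libraries, each reference was checked for a single library far from the rest, which made 24 checks. Chance alone gives about 1 such library in 20 checks, and 3 were found. Hprt1 in the male of rat batch 2 numbered 7 was at 0, while the other 9 males of that batch lay between 4.32 and 7.98, and the gap was 0.542 of the whole range. Hprt1 in the female of rat batch 6 numbered 5 was 8.38, above 6.58 to 7.27 in the other 7, with a gap of 0.621 of the range. Ywhaz in the male of rat batch 6 numbered 1 was 14.66, under 14.88 to 15.06 in the other 7, with a gap of 0.538 of the range.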

How the results depend on the processing

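No paired analysis was possible because a replicate number is only a name here and ties no animals of different groups together. Both the column run and expression components as covariates removed every call of a batch difference among the references. With the column run in the model, 169 genes were called over the rat batches and the adjusted p-values were 0.841 for Actb, 0.941 for Gapdh, 0.192 for B2m and 0.446 for Hprt1, while Gapdh in rat batch 3 and in rat batch 4 against rat batch 2 turned to -0.024 and -0.12. Of the pairs of batches, only 6 and 4 then had genes called, 765 of them. The errors also grew with the run in the model. Each difference of rat batches 4 and 6 from 2 and 3 then rested on the 1 rat batch 3 library in run 3. Hprt1 in rat batch 3 minus rat batch 2 was 1.73 (SE 0.67, limma adjusted p = 0.766). In rat batches 4 and 6 minus rat batch 2 it was 1.66 (SE 1.52) and 1.83 (SE 1.53). B2m in rat batch 6 minus rat batch 3 was -0.53 (SE 0.17), where that single library had the highest B2m level of its batch, 12.29. None of these differences was called. With 20 expression components, 12 genes were called and the values were 0.374, 0.991, 0.847 and 0.734, Hprt1 in rat batch 6 against rat batch 2 turned to -0.17, the sexes differed in 7 genes, and males minus females turned to 0.0038 in Actb, 0.17 in Gapdh and 0.016 in Ywhaz, while Actb in rat batch 4 against rat batch 2 stayed at -0.22 (SE 0.064). The causes were not tested.

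Scaling moved the calls of B2m, Tbp and Ywhaz over the rat batches, and those of Actb, Gapdh, Ywhaz, B2m and Tbp in single pairs. B2m missed the threshold with equal totals (adjusted p = 0.390), voom (0.393) and quantile normalization (0.232). Tbp passed with equal totals (0.0303) and voom (0.0312), and Ywhaz passed with quantile normalization (6.32e-07). Gapdh in rat batch 3 against 2 was lost with quantile normalization (0.122), equal totals (0.0806) and voom (0.0888), and in rat batch 6 against 2 was gained with them (4.49e-05, 0.0127 and 0.0124). With quantile normalization it turned from -0.054 to 0.10 in rat batch 4 against 3 and from -0.069 to 0.13 in rat batch 6 against 3. With quantile normalization the SDs of Actb, Gapdh and Ywhaz became 0.0951, 0.131 and 0.138, and the percentiles of Actb and Ywhaz among genes of like mean 16.6 and 54.2. The median difference of all genes between batches stayed within 0.0703 on the log2 scale in each scaling run.

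With each sex alone, fewer libraries were tested. Males alone gave 5756 genes over the rat batches and 0.309 for B2m, and females of rat batches 3, 4 and 6 gave 5348 genes, with 0.110 for B2m, 0.457 for Gapdh and 0.576 for Hprt1. That fit also left out rat batch 2, which every called pair of Gapdh and Hprt1 involves. Without the library lowest in total count Hprt1 had 0.0554, and the ratios with Hprt1 had 0.0707 (Actb), 0.246 (Gapdh), 0.110 (Ywhaz), 0.150 (B2m) and 0.110 (Tbp). Without both libraries at 0 for Hprt1, a choice made by the level of Hprt1, the 5 ratios with Hprt1 had 0.00105 to 0.0232, Gapdh/Ywhaz had 0.0439 and Gapdh in rat batch 3 against 2 had 0.0507, with its difference still at 0.20. With rat batch 2 in the interaction fit, or with a pseudocount of 8, 1 gene was called in place of 0. The sexes differed in 9 genes within rat batch 4 and 8 within rat batch 6. Males minus females turned within rat batch 3 to 0.074 in Tbp, within rat batch 4 to 0.014 in Ywhaz, and within rat batch 6 to 0.031 in Actb, 0.057 in Gapdh, 0.0079 in Ywhaz, 0.017 in B2m and 0.032 in Tbp.

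With the second identifier added, which then makes up most of the sum, Hprt1 had an SD of 0.144, a percentile of 53.2, an adjusted p of 0.373 over the rat batches, a sex difference of -0.030, and differences from rat batch 2 of -0.0048, -0.014 and -0.085 in rat batches 3, 4 and 6. Its SD was 0.734 as a scaled median absolute deviation and 0.987 with a pseudocount of 8, and its percentile was 96.6 by the coefficient of variation. The percentile of Actb was 45.4 by the median absolute deviation. With batch and run means taken off, Gapdh had an SD of 0.118 and a percentile of 34.4. In females alone the SD was 0.156 for Gapdh and 0.195 for B2m, whose percentile was 81.2. In males alone the SD of B2m was 0.141, and the percentiles were 59.2 for B2m and 32.2 for Ywhaz.

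Spread also differed within batches. In rat batch 2 the SDs were 0.0908 for Gapdh, 0.112 for B2m, 0.114 for Tbp and 2.37 for Hprt1, and the percentiles 21.2 for Gapdh, 33.8 for Ywhaz and 42.0 for B2m. In rat batch 3 the SDs were 0.0846 for Actb, 0.181 for Gapdh, 0.0908 for Ywhaz and 0.522 for Hprt1, and the percentiles 13.2 for Actb and 82.4 for Gapdh. In rat batch 4 the SDs were 0.132 for Actb and 0.113 for Ywhaz, and the percentile of Actb was 42.8. In rat batch 6 the SDs were 0.116 for Gapdh, 0.190 for B2m, 0.2004 for Tbp and 0.647 for Hprt1, and the percentiles 42.2 for Actb, 38.4 for Gapdh, 85.2 for B2m and 36.6 for Tbp.

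Leaving out 1 library at a time, the adjusted p over the rat batches ran from 8.88e-12 to 1.36e-10 for Actb, 0.0042 to 0.0275 for Gapdh, 0.0076 to 0.0593 for B2m, 0.00058 to 0.0554 for Hprt1, 0.125 to 0.399 for Tbp and 0.444 to 0.783 for Ywhaz. The genes called ran from 8888 to 9346 over the rat batches and from 14 to 24 between the sexes, the highest without the male of rat batch 4 numbered 12 (23), or the females of rat batch 2 numbered 4 (23), rat batch 6 numbered 6 (24) or rat batch 4 numbered 10 (24). Single pairs of batches were less stable. Gapdh in rat batches 3 and 4 against 2 was lost in males alone, at 0.22 (limma adjusted p = 0.0695) and 0.13 (0.108). These differences were about as large as with both sexes (0.20 and 0.15). Gapdh in rat batch 6 against 2 was gained in males alone, at 0.18 (0.0384), and without sex in the model, at 0.14 (0.0374). Hprt1 in rat batch 3 against 2, at 1.84 in the main fit, was lost with a pseudocount of 0.1 (2.16, limma adjusted p = 0.0613) and in males alone (1.62, 0.134). It was also lost with the inverse normal transformation (0.0740), which has another scale. Hprt1 in rat batch 4 against 2 was lost with the total count in the model (1.01, 0.0887). In rat batch 6 against 2 it was lost with the inverse normal transformation (0.0549). B2m in rat batch 6 against 3 was lost in males alone (0.127), and Tbp in rat batch 4 against 3 was gained with the total count in the model (0.0372). Genes called between rat batches 3 and 2 ran from 270 without the male of rat batch 3 numbered 2 to 1164 without the female of rat batch 2 numbered 4. In the test over all rat batches, every alternative not named here kept each reference on its side of the threshold.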
